A study of Mus musculus with 2 samples.

Results

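The 10 genes described here encode transcription factors that shape effector CD8+ T cells: Tbx21, Eomes, Id2, Prdm1, Irf4, Irf8, Batf, Batf3, Bhlhe40 and Runx3. They were chosen by name and matched by gene symbol among the 27998 genes that both deposited matrices list, and all 10 were found. The cells came from spleen and lymph nodes of OT-I mice aged 8 to 12 weeks, whose CD8+ T cells carry a transgenic receptor for an ovalbumin peptide, per the labels. Splenocytes were stimulated for 48 h with that peptide (SIINFEKL), with interleukin-2 at 100 U/ml, and were then moved to expansion medium with interleukin-2 at the same dose. One culture then spent 20 h under transient glucose restriction (TGR, 1 mM glucose) and the other 20 h in control medium with 11 mM glucose. The sample descriptions instead give 3 days of growth before the exposure, and the labels do not say whether glucose was restored before capture. Each condition is 1 library made on the 10x Chromium platform, so no test of the conditions was possible and the differences carry neither a p-value nor a replicate check.

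After stimulation through the receptor, a naive CD8+ T cell divides and takes on cytotoxic functions under a small set of transcription factors. T-bet (Tbx21) and EOMES are related T-box factors, RUNX3 opens cytotoxic loci and keeps the cell in the CD8 lineage, and IRF4 and BATF act together on genes of activation and metabolism. ID2 holds E proteins off DNA, BLIMP-1 (Prdm1) drives terminal effector differentiation, and BHLHE40 is a repressor linked to cytokine production and mitochondrial function. IRF8 and BATF3 are best known from dendritic cells, and both are also induced in activated CD8+ T cells.

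The libraries held 2546 TGR and 3127 control cells with at least 500 genes and under 10% of UMIs (unique molecular identifiers, 1 per captured transcript) on mitochondrially encoded genes. Median depth was 6266 UMIs in TGR cells and 4030 in control cells, and ribosomal protein genes took a median of 49.3% and 39.5% of UMIs. The 7 T cell markers found in the files were Cd3d, Cd3e, Cd3g, Lck, Cd2, Cd8a and Cd8b1. They summed to 2341 CPM (UMIs per 1000000 of the library) in TGR and 2992 CPM in control. UMIs of at least 2 of them occurred in 99.7% of TGR and 98.6% of control cells. Of these genes, only Cd8a and Cd8b1 tell CD8 from CD4 T cells. Cd8a had a UMI in 75.1% of TGR and 71.2% of control cells, and Cd8b1 in 89.8% and 81.6%. The libraries had 11 barcodes in common, 9 of them among the kept cells. With those cells left out, the same 5 factors passed the fold threshold used throughout.

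Promoter sequence is shown for the lower factors Irf8 and Eomes and for Runx3, whose level was nearly equal in the libraries, so that the reading of motifs further on can be followed by eye. The sequences are the 250 bases before the transcription start in RefSeq (GRCm38.p6), all on the plus strand and written 5′ to 3′. They lie at chr8:120736108-120736357 (Irf8), chr9:118477939-118478188 (Eomes) and chr4:135120395-135120644 (Runx3). Capitals mark matches to the motifs named further on. They are GAS motifs, the element bound by STAT dimers, in Irf8, an interferon-stimulated motif bound by IRF proteins in Eomes and RUNX motifs read on the opposite strand in Runx3.
Irf8: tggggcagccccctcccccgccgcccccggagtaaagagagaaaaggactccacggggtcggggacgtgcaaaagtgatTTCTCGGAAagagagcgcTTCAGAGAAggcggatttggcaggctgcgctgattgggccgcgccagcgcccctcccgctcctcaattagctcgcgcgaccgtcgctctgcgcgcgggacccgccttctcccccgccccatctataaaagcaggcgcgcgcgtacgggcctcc
Eomes: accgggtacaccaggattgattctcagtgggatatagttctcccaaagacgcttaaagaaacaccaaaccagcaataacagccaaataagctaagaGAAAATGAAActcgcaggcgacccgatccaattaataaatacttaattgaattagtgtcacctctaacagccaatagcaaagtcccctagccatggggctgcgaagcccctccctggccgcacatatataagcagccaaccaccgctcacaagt
Runx3: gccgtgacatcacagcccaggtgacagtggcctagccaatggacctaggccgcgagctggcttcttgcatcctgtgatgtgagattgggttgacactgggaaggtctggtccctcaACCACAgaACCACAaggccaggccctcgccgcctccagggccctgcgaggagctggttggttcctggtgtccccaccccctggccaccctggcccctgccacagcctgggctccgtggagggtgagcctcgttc

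Of the 10 factors, Bhlhe40 was higher in the TGR library, Eomes, Irf8, Batf3 and Id2 were lower, and Irf4, Batf and Runx3 stayed within 1.5-fold. Tbx21 and Prdm1 had fewer than 10 CPM in both libraries and were left unscored. A gene was called higher or lower at 1.5-fold with at least 10 CPM in either library and a 95% counting interval of the ratio that excluded 1. By this rule 1 of 8 scored factors was higher, against 9.3% of all 6667 scored genes, and 4 of 8 were lower, against 21.8%. The median log2 ratio of TGR over control was −0.58 for the 8 scored factors and −0.16 for all scored genes. Eomes reached 10 CPM in control only, so it could enter the count only as a gene lower in TGR. A gene with 10 CPM in 1 library only can be called in 1 direction only, and such calls are named where they occur. Eomes is one of them in every phase and band that follows. Intervals here and throughout cover counting error alone.

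**Figure D1:**
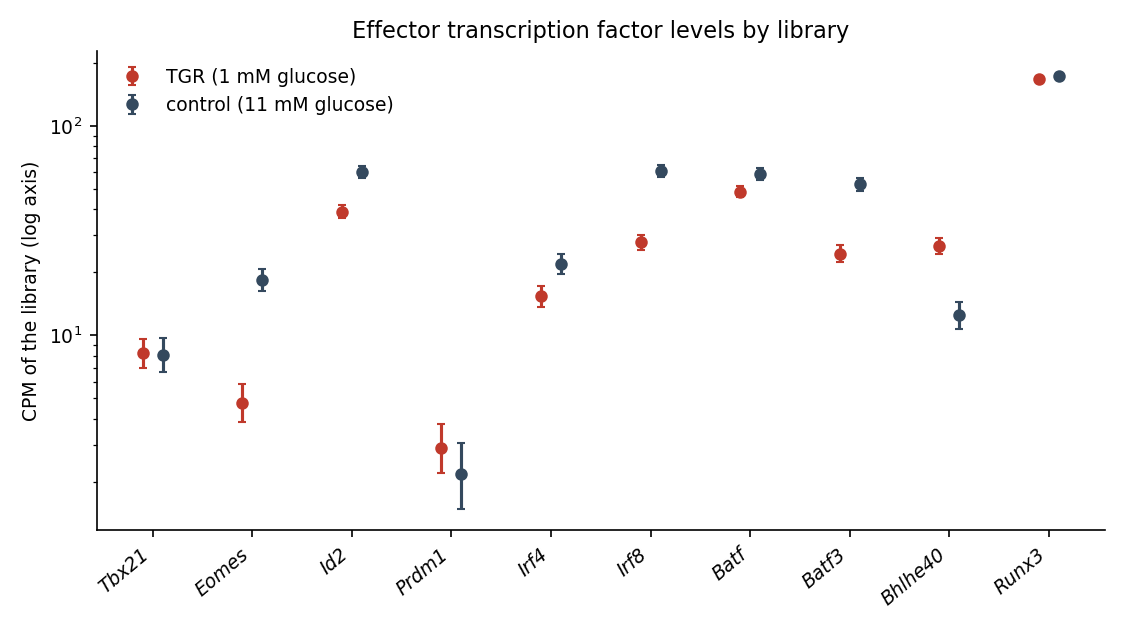
Level of each factor in the TGR library (red, left of each pair) and the control library (dark blue), in CPM on a log axis, with exact Poisson intervals of 95% that cover counting error only. Bhlhe40 stands above control in TGR (26.8 and 12.5 CPM), and Eomes, Irf8, Batf3 and Id2 stand below it. Levels of different genes are not to be ranked from this plot.

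Among the T-box factors, Eomes showed the widest gap between the libraries. Eomes (chr9:118478212-118486132 in GRCm38) had 94 UMIs or 4.77 CPM in TGR and 272 UMIs or 18.5 CPM in control. It was 3.86-fold lower in TGR (counting interval 3.05 to 4.95). With every cell thinned to 1500 UMIs the difference was 2.46-fold, on 27 TGR and 79 control cells with a UMI. Tbx21, which encodes T-bet, gave 8.22 CPM in TGR and 8.08 CPM in control, a ratio of 1.02 (0.799 to 1.30). The counting intervals of the ratios of these paralogs did not overlap, and that of Tbx21 spans a modest difference in either direction.

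Both interferon regulatory factors among the 10 were below control in TGR, and Irf8 passed the threshold. Irf8 (chr8:120736358-120756694) gave 27.8 CPM from 548 UMIs in TGR and 60.8 CPM from 895 UMIs in control, 2.18-fold lower in TGR (1.96 to 2.43). Irf4, which scales with receptor signal strength, gave 15.3 CPM in TGR and 22.0 CPM in control, 1.43-fold lower (1.22 to 1.68) and short of the threshold. Its values by depth are given further on.

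The BATF factors, which pair with JUN proteins on AP-1 sites, split in the same way. Batf3 (chr1:191097847-191108945) gave 24.6 CPM from 484 UMIs in TGR and 52.5 CPM from 774 UMIs in control, 2.14-fold lower in TGR (1.91 to 2.40). Batf gave 48.6 CPM in TGR and 59.3 CPM in control, 1.22-fold lower (1.11 to 1.34).

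Id2 (chr12:25093799-25097140) gave 38.9 CPM in TGR and 60.6 CPM in control, 1.55-fold lower in TGR (1.41 to 1.71), just past the threshold. Scaled to totals without ribosomal protein and mitochondrially encoded genes, its log2 ratio was −0.38, no longer past the threshold, against −0.64 as scaled here. That scaling raised the log2 ratio of every factor by 0.26. Over all genes it moved the median log2 ratio to 0.17, and 69.2% of calls were then higher in TGR, against 29.9% with total UMIs.

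Bhlhe40 (chr6:108660629-108666925) was the only factor of the 10 called higher in the TGR library. It gave 26.8 CPM from 527 UMIs in TGR and 12.5 CPM from 184 UMIs in control, 2.14-fold higher in TGR (1.81 to 2.55). Runx3 gave 167 CPM from 3289 UMIs in TGR and 173 CPM from 2550 UMIs in control, and with these counts the ratio of 0.965 had an interval of 0.916 to 1.02. Prdm1, at 2.89 CPM in TGR and 2.17 CPM in control, was too sparse to separate the libraries (ratio 1.32, 0.849 to 2.12).

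Shares of cells with a UMI depended on depth. TGR cells were deeper, and with all UMIs Runx3 was found in 64.1% of TGR and 49.1% of control cells and Batf in 29.8% and 23.6%, although both had the lower CPM in TGR. Id2 was found in 22.5% of TGR and 22.1% of control cells despite its lower level in TGR. With each cell thinned to 1500 UMIs, a depth that 91 control cells and no TGR cell fell short of, these gaps closed or turned. Runx3 was found in 21.9% of TGR and 21.0% of control cells, Batf in 7.70% and 8.53%, and Id2 in 6.13% and 8.14%.

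At equal depth the shares followed the levels for the called factors. Irf8 had a UMI in 4.44% of TGR cells (exact binomial interval 3.67 to 5.31%) and 8.20% of control cells (7.25 to 9.24%). Batf3 had one in 2.40% of TGR cells (1.84 to 3.07%) and 5.30% of control cells (4.53 to 6.16%). Bhlhe40 had one in 4.24% of TGR cells (3.49 to 5.10%) and 1.84% of control cells (1.40 to 2.39%). The intervals of the libraries did not overlap for these genes. Eomes was found in 1.06% of TGR and 2.60% of control cells, while Tbx21 (1.30% and 1.35%) and Prdm1 (0.236% and 0.296%) gave shares whose intervals overlapped.

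Most cells yielded no UMI of any of the 10 factors at this depth, 57.9% in TGR and 52.3% in control. No cell population that should lack these genes was present to set a background for free RNA. As a measure of foreign RNA, UMIs of 5 neutrophil genes occurred in 1 TGR cell and no control cell, and UMIs of 5 red blood cell genes in no TGR cell and 3 control cells. With 3 cells taken as the upper limit of a count of 0, no cell with a UMI allows a share of up to 0.118% in TGR and 0.0959% in control.

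**Figure D2:**
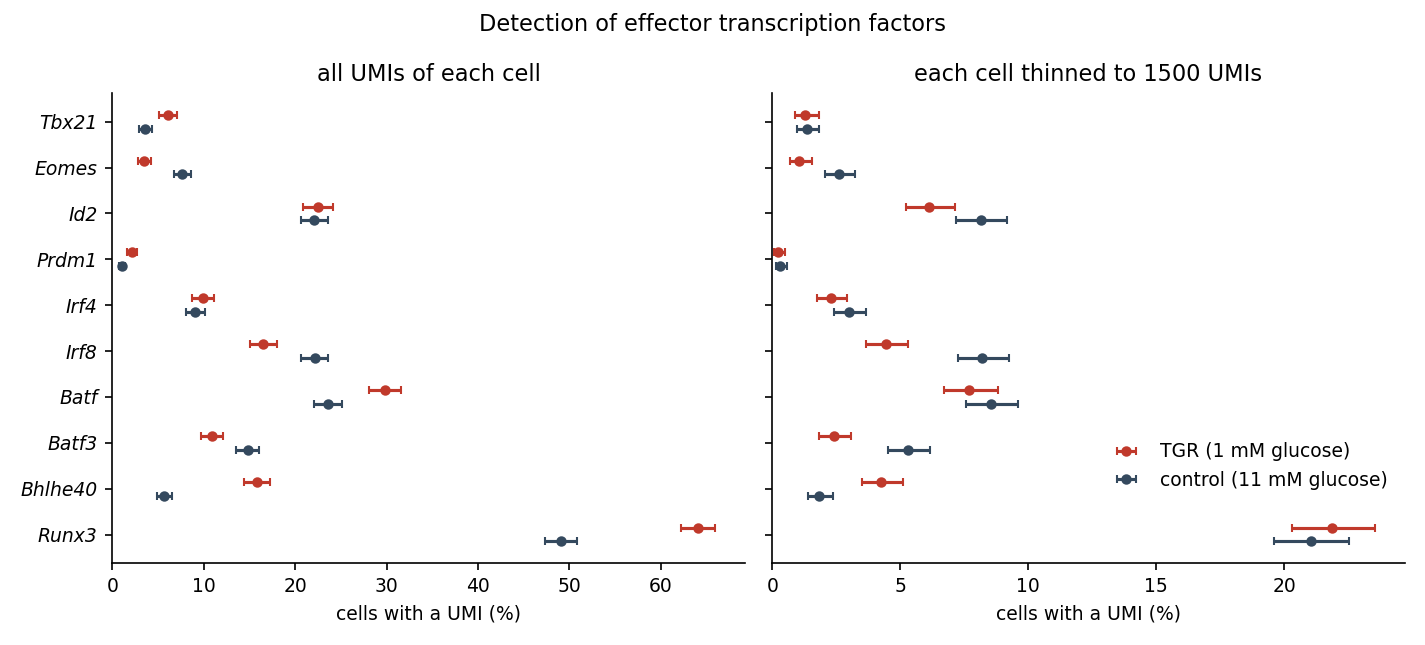
Share of cells with a UMI of each factor in the TGR (red, upper point of each pair) and control (dark blue) libraries, with all UMIs of each cell (left panel) and with each cell thinned to 1500 UMIs (right panel), in percent with exact binomial intervals of 95%. The excess of TGR for Runx3 and Batf on the left is gone or within the intervals on the right, and Irf8, Batf3, Eomes and Bhlhe40 stay apart.

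Irf8 and Batf3 are also defining factors of conventional dendritic cells, and Irf8 is expressed in B cells, so markers of those cells were examined. The dendritic cell list summed to 61.5 CPM in TGR and 117 CPM in control, of which Cst3 made up 58.4 and 115 CPM. Clec9a, Itgax, Flt3, Cd209a and Siglech had no UMI in either library and Xcr1 had none in control. With 3 UMIs taken as its upper limit, a count of 0 allows up to 0.152 CPM in TGR and 0.204 CPM in control. B cell genes summed to 14.6 CPM in TGR and 21.2 CPM in control, mainly Cd79b, and Pax5 had no UMI. Cells with UMIs of at least 2 genes of another cell type numbered 67 in TGR and 43 in control. Without them Irf8 stood at 27.7 CPM in TGR and 60.1 CPM in control, and Batf3 at 23.9 and 52.9 CPM.

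The libraries differed in called cell cycle phase, which was assigned from S and G2/M genes in cells thinned to 1500 UMIs. G1 was called for 1081 TGR cells (42.5%) and 163 control cells (5.37%), S for 988 (38.8%) and 1228 (40.4%), and G2/M for 477 (18.7%) and 1645 (54.2%). The border between S and G2/M depended on depth, since without thinning 12.2% of TGR and 12.9% of control cells were called S, while the excess of G1 in TGR remained (53.7% and 7.20%). Phases are therefore read here as strata for comparing the libraries.

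Within each called phase the 4 factors with more than 2-fold gaps kept their calls. Irf8 was at 36.0, 23.1 and 24.2 CPM in G1, S and G2/M cells of TGR and at 71.9, 57.5 and 62.1 CPM in those of control. It was 2.02-fold, 2.49-fold and 2.56-fold lower in TGR within G1, S and G2/M, and it was called in all 3 phases under each of the 4 other ways of calling phases or genes that were tried. Eomes was 3.81-fold, 5.01-fold and 2.91-fold lower in TGR. Batf3 was 2.39-fold, 2.31-fold and 2.07-fold lower, with 23.9, 26.2 and 22.6 CPM in TGR and 56.5, 60.5 and 47.1 CPM in control.

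Bhlhe40 was higher in TGR in every phase. It was at 27.8, 24.6 and 29.0 CPM in G1, S and G2/M cells of TGR and at 3.43, 12.0 and 13.6 CPM in those of control. The G1 value of control rests on 2 UMIs, and the G1 ratio of 6.52 has a counting interval of 2.22 to 67.6. The ratios within S and G2/M were 2.04 and 2.13. Calls of Eomes and Batf3 in G1 and of Bhlhe40 in S were each lost under at least 1 other way of calling phases.

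Detection within phases, with each cell at 1500 UMIs, gave the same picture for Irf8. It was found in 5.00%, 4.05% and 3.98% of G1, S and G2/M cells of TGR and in 11.0%, 8.63% and 7.60% of those of control, with intervals that did not overlap in any phase. Batf3 was found in 3.05%, 2.02% and 1.68% of G1, S and G2/M cells of TGR and in 6.75%, 6.11% and 4.56% of those of control, apart in S and G2/M and overlapping in G1. Bhlhe40 was found in 4.16%, 4.25% and 4.40% of G1, S and G2/M cells of TGR, against 1.87% and 2.01% of S and G2/M cells of control. It was found in 0 of 163 G1 cells of control, where the exact binomial interval reaches 2.24%. Runx3, by contrast, was found in 25.2% of G1 cells of TGR and 16.6% of those of control (22.6 to 27.9% and 11.2 to 23.2%), and in S and G2/M its shares lay between 19.3% and 21.6% in both libraries.

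In all, 1 of 8 scored factors was higher and 3 were lower within G1, against 4.72% and 15.8% of all scored genes. The higher one, Bhlhe40, reached 10 CPM in G1 cells of TGR only, and the lower ones include Eomes, which reached it in those of control only. Within S 1 of 8 was higher and 4 were lower (11.4% and 20.7%), and within G2/M 1 of 9 was higher and 4 were lower (12.4% and 21.9%). The factor that joined in S and G2/M was Id2, at 49.9, 34.2 and 31.2 CPM in G1, S and G2/M cells of TGR and 63.4, 58.9 and 61.3 CPM in those of control. Its ratio was 0.777 within G1 (0.560 to 1.14), 0.580 within S and 0.510 within G2/M.

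**Figure D3:**
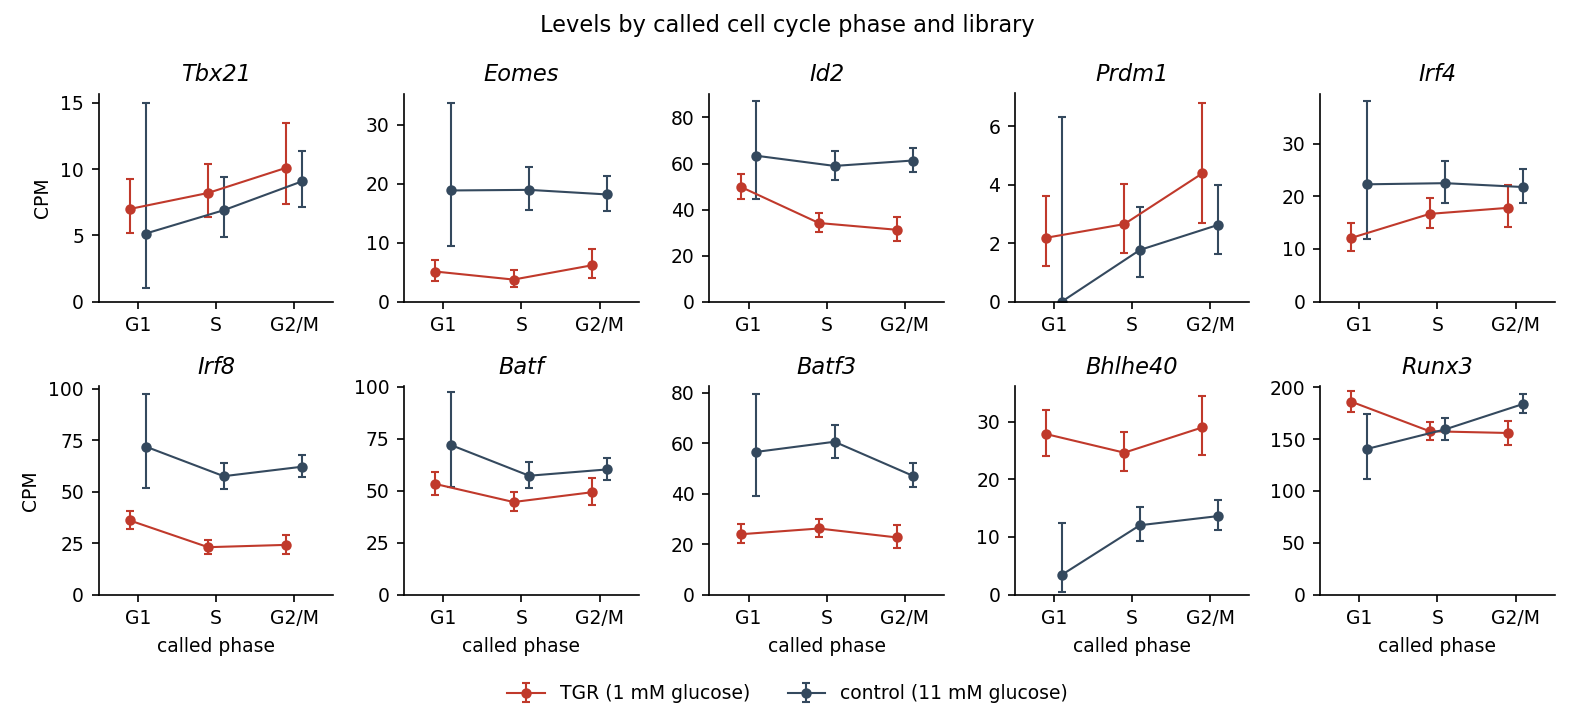
CPM of each factor in cells called G1, S and G2/M in the TGR (red, left of each pair) and control (dark blue) libraries, with exact Poisson intervals of 95%, and axes that start at 0 and differ between genes. Irf8, Eomes and Batf3 are lower in TGR in each phase, and Id2 and Irf8 fall away from G1 within the TGR library (Id2 49.9 to 31.2 CPM). TGR cells called S and G2/M were also deeper than those called G1.

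Within a library, few factors varied by phase. In TGR, S cells had 1.56-fold less Irf8 than G1 cells (1.29 to 1.90), which made it the only factor called among 7 scored, while 1.3% of all genes were lower and 8.39% higher. G2/M cells of TGR had 1.59-fold less Id2 than G1 cells (1.31 to 1.96), 1 of 8 factors, against 4.04% of all genes lower and 12.1% higher. Both patterns held when phases were called without thinning, where Irf8 was at 23.5 CPM in S and 35.8 CPM in G1 and Id2 at 30.0 CPM in G2/M and 49.0 CPM in G1. TGR cells called G1, S and G2/M also differed in depth, with medians of 5254, 6718 and 7985 UMIs. Between the shallowest and deepest TGR cells Id2 was 2.31-fold lower in the deepest, and Irf8 was not called (ratio 0.891, 0.475 to 2.21). Phase and depth were not separated in these comparisons.

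In control, no factor was called between S and G1, where 6.02% of genes were higher and 4.66% lower. Bhlhe40 was called higher in G2/M than in G1 of control (3.19-fold, 1.08 to 33.2), on the 2 G1 UMIs, where 6.44% of genes were higher and 3.81% lower. It reached 10 CPM in G2/M only of these phases, so it could be called only as higher. Irf8 in control stayed at 57.5 CPM in S and 71.9 CPM in G1, a ratio whose interval includes 1. Runx3 ran in opposite directions in the libraries, with 156 CPM in G2/M and 186 CPM in G1 cells of TGR and 184 CPM in G2/M and 140 CPM in G1 cells of control.

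Cells were also grouped by the number of UMIs of S and G2/M genes among 1500, a grouping added after the data were seen that needs no border between phases. In the band of 6 to 15 such UMIs, with 1062 TGR and 1172 control cells, Eomes was 4.31-fold, Irf8 2.64-fold, Batf3 2.27-fold, Id2 1.69-fold and Irf4 1.63-fold lower in TGR, and Bhlhe40 was 2.30-fold higher. In cells with 16 or more, 355 in TGR and 1780 in control, Batf3 was 3.16-fold lower (15.4 CPM in TGR and 49.1 CPM in control). There Eomes was 3.95-fold, Irf8 2.51-fold and Id2 1.95-fold lower and Bhlhe40 was 1.61-fold higher. Irf4 was not called in that band (ratio 0.719, 0.484 to 1.02). Control had 84 cells with 5 or fewer, too few to place Batf3 (ratio 0.546, 0.322 to 1.08). Eomes (4.25-fold) and Irf8 (1.92-fold) were called lower there, Id2 was not called, and Irf4 had no UMI in those control cells. Bhlhe40 was called higher (3.09-fold) on 2 control UMIs, and with 10 CPM reached in TGR only it could be called only as higher. The share of all genes called was not computed for these bands.

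The gap in Batf3 was wider in cells of middle depth than in deeper cells, with counting intervals that did not overlap and no test of the difference. In cells with 3000 to 6000 UMIs, 1087 in TGR and 1478 in control, Batf3 was at 10.8 CPM in TGR and 48.1 CPM in control, 4.41-fold lower in TGR (3.32 to 6.05). In cells with 6000 or more it was at 29.5 CPM in TGR and 64.8 CPM in control, lower in TGR with an interval of 1.91 to 2.52-fold. Irf4 was at 8.81 CPM in TGR and 19.9 CPM in control in the middle band, 2.24-fold lower (1.59 to 3.25) and past the threshold, although it reached 10 CPM there in control only and could be called only as lower. It was 1.41-fold lower in the upper band (1.15 to 1.73), an interval that overlaps the first, and under 3000 UMIs its ratio was 1.25 (0.448 to 2.66). In the upper band 1 factor (Bhlhe40) was higher and 4 (Eomes, Id2, Irf8 and Batf3) were lower, against 10.7% and 24.1% of all genes.

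In the middle band, Eomes (2.84-fold lower), Irf8 (1.80-fold lower) and Bhlhe40 (1.89-fold higher) also passed, and Id2 did not (1.33-fold lower), while 11.5% of all genes were higher and 23.5% lower. Within control, Batf3 was 2.35-fold higher in cells with 6000 or more UMIs than in cells with under 3000 (64.8 and 27.3 CPM). Bhlhe40 was also called higher in the deeper control cells, by 1.74-fold (1.06 to 3.18), at 15.3 and 8.59 CPM. It reached 10 CPM in the deeper cells only, so it could be called only as higher. In this band comparison 4.87% of genes were higher and 5.17% lower. Within TGR, Id2 was 2.31-fold and Batf 1.82-fold lower in the deepest than in the shallowest band, where 3.24% of genes were higher and 5.65% lower. Under 3000 UMIs TGR had only 103 cells, and Bhlhe40 alone was called there, at 35.0 CPM in TGR and 8.59 CPM in control, against 6.41% of genes higher and 10.6% lower. It reached 10 CPM there in TGR only, so it could be called only as higher.

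**Figure D4:**
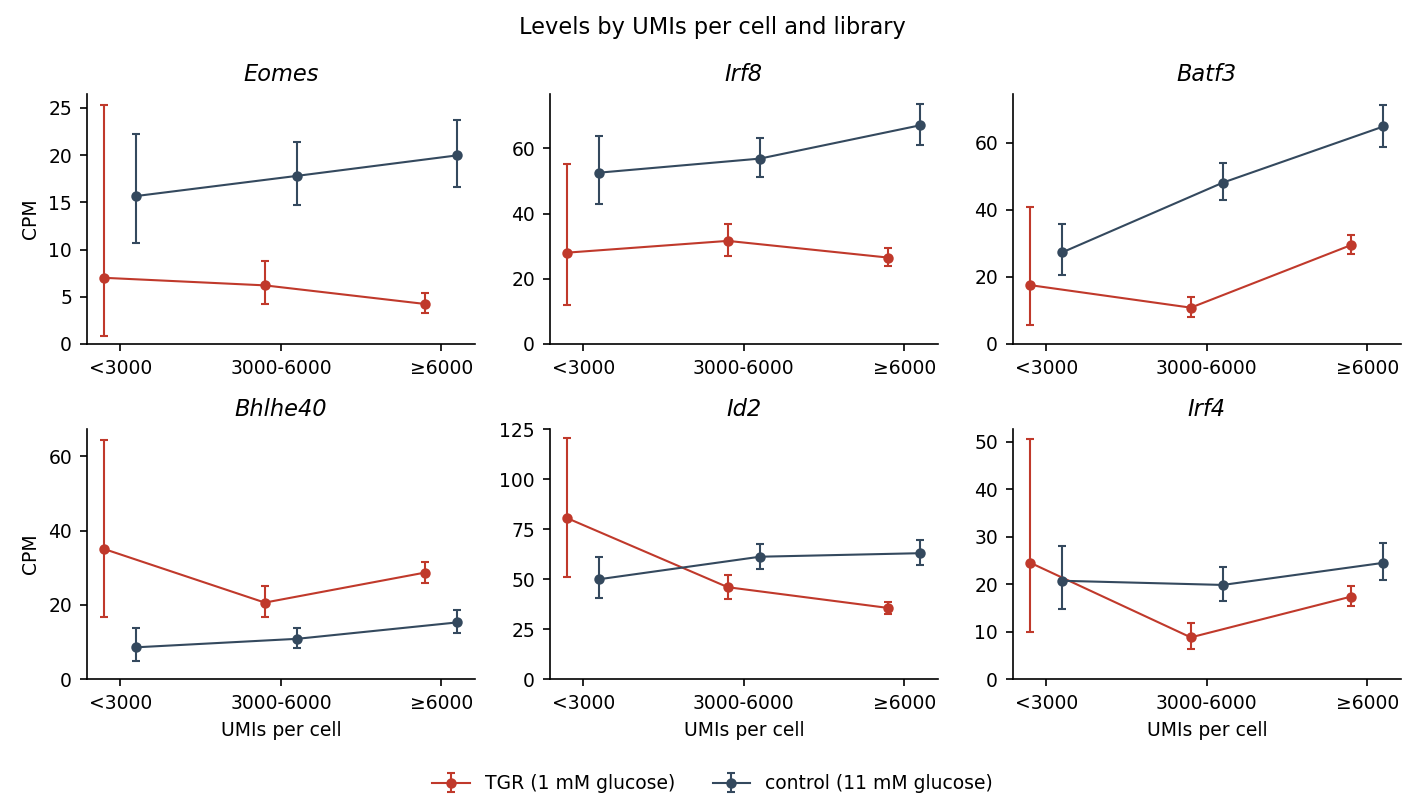
CPM of 6 factors in cells with under 3000, 3000 to 6000 and 6000 or more UMIs in the TGR (red, left of each pair) and control (dark blue) libraries, with exact Poisson intervals of 95% and axes that start at 0. Within TGR, Batf3 and Irf4 have their lowest value in the middle band (10.8 and 8.81 CPM), with intervals that overlap those of the shallowest band, and in control they stand at 48.1 and 19.9 CPM there.

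Batf3 UMIs were concentrated in a minority of cells in both libraries. If its UMIs had been spread over cells in proportion to their depth, 16.8% of TGR and 21.2% of control cells would have had one, but 10.9% and 14.8% did, 64.8% and 69.8% of the even share. Batf, its paralog, matched the even share with 29.8% found and 29.7% if even in TGR, and 23.6% found and 23.5% if even in control. Of the genes with 10 to 200 CPM, only 4 of 5853 in TGR (Hspa1a, Ccl5, Lgals3 and Cenpa) and 6 of 5648 in control (Ifitm1, Ccl5, Ifitm3, Mt1, Mt2 and Lgals3) were less even. The median over those genes was 98.6% of the even share in TGR and 99.0% in control.

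The other factors were nearer to the even share than Batf3, but several were among the least even few percent of genes. Irf8 reached 88.2% of the even share in TGR and 92.2% in control, where 2.02% and 1.27% of genes were less even. Id2 reached 90.5% and 92.2%, with 3.28% and 1.26% of genes less even, and Irf4 90.3% and 93.7%, with 3.16% and 2.27%. Bhlhe40 reached 87.3% in TGR and 99.4% in control, where 1.73% and 58.7% of genes were less even. It had 527 UMIs in TGR and 184 in control, and its share if even was 18.1% and 5.66%. A gene with fewer UMIs per cell falls less below the even share for the same unevenness. The values therefore do not show that Bhlhe40 was more even in control, and that difference was not tested. Eomes reached 96.0% in TGR and 92.5% in control, with 20.2% and 1.43% of genes less even. In TGR, at 4.77 CPM, it lay below the 10 to 200 CPM of those genes. Its TGR rank is therefore against more abundant genes and is not comparable with that in control.

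**Figure D5:**
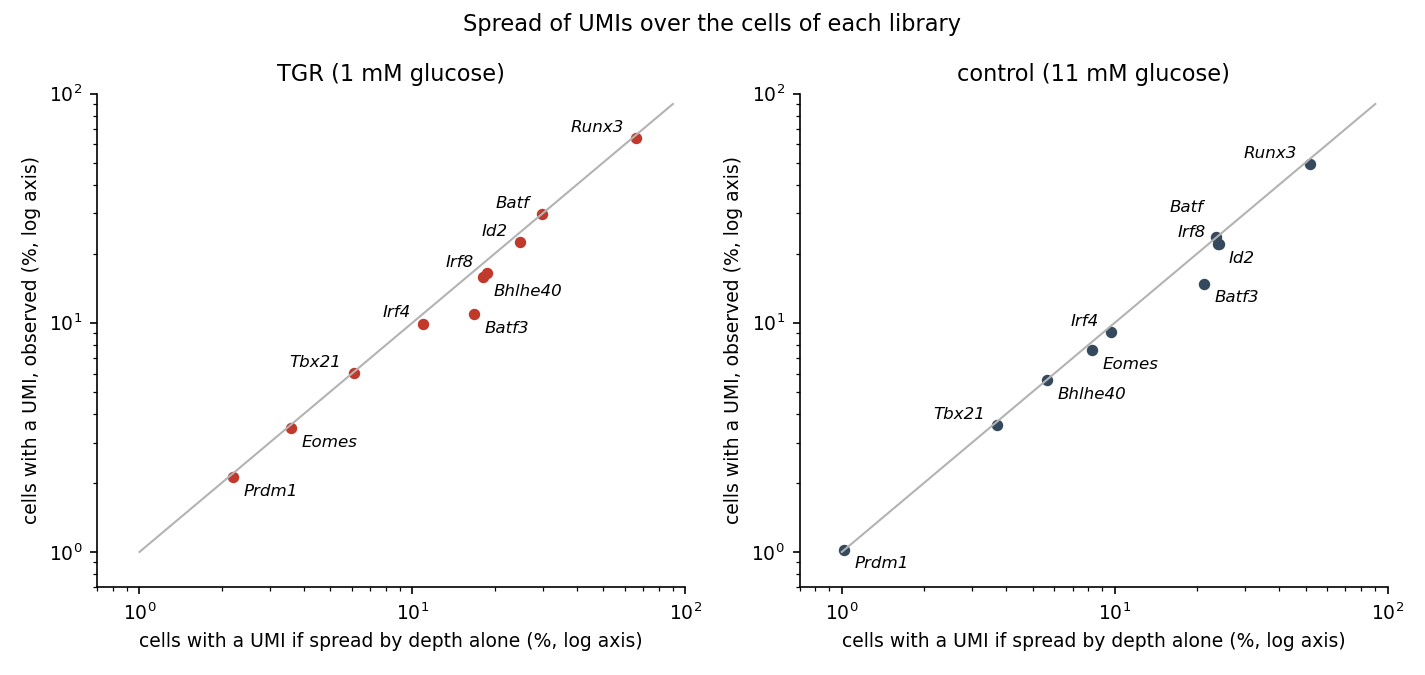
Share of cells with a UMI of each factor against the share if its UMIs were spread by cell depth alone, in percent on log axes, for the TGR (left) and control (right) libraries. Points on the line are even, and Batf3 lies furthest below it in both libraries (10.9% against 16.8% in TGR and 14.8% against 21.2% in control).

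Cells with 3 or more Batf3 UMIs numbered 45 in TGR and 79 in control and held 38.8% and 38.6% of all Batf3 UMIs. They were deeper than cells with none, with medians of 12161 and 5966 UMIs in TGR and 7024 and 3780 in control, and were spread over phases (14, 21 and 10 cells in G1, S and G2/M of TGR, and 2, 34 and 42 in control). They are compared with Batf3-negative cells of the same library as a description, since Batf3 itself defined them.

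Irf4 was higher in the Batf3-high cells of both libraries, at 28.1 and 13.5 CPM in high and negative cells of TGR and 36.8 and 19.9 CPM in those of control. Irf4 also differed by depth within TGR, at 8.81 CPM in cells with 3000 to 6000 UMIs and 17.4 CPM in cells with 6000 or more. Under 3000 UMIs it was at 24.5 CPM, on 7 UMIs. The part of depth in the differences of the Batf3-high cells was not tested. Il2ra, the alpha chain of the interleukin-2 receptor, was at 215 and 120 CPM in TGR and 358 and 167 CPM in control. Klf2, a factor of quiescence and lymphoid homing, was lower in high cells, at 51.3 and 137 CPM in TGR and 33.4 and 83.6 CPM in control. Tcf7, the memory factor TCF-1, was 2.15-fold lower in high cells of control, but within 1.5-fold in TGR (179 and 202 CPM). Of 13 naive and memory factors, 3 in TGR (Id3, Klf2 and Klf3) and 6 in control, Klf2 and Klf3 among them, were lower in high cells and none was higher, against 2.79% and 3.82% of all genes lower and 3.36% and 5.4% higher. Batf itself did not differ past the threshold (36.4 and 50.3 CPM in TGR, 60.2 and 61.9 CPM in control).

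The families and partners of the 10 factors held genes called in both directions. Over all cells 9.3% of all scored genes were higher and 21.8% lower, and within G1 4.72% and 15.8%. These shares are the background for the counts in this and the other gene lists that follow. Among 7 scored IRF genes, Irf7 (17.1 CPM in TGR and 8.35 CPM in control) and Irf9 (39.9 and 22.8 CPM), both of the type I interferon response, were higher in TGR, and Irf8 alone was lower. Irf7 reached 10 CPM in TGR only and could be called only as higher. Within G1 Irf9 was still higher (45.3 and 15.4 CPM, on 9 UMIs in control) and Irf7 was not called. Irf1 and Irf2, at 54.8 and 51.4 CPM in TGR and 49.8 and 40.3 CPM in control, were within 1.5-fold. Among 7 scored AP-1 and BATF genes, Bach2 (42.0 and 26.2 CPM), a repressor that competes with AP-1, and Jun (23.3 and 14.6 CPM) were higher, Batf3 was lower, and Jund (308 and 373 CPM) was within 1.5-fold. Neither Bach2 nor Jun was called within G1.

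Among RUNX partners, Cbfb, the shared subunit of RUNX factors, was within 1.5-fold at 53.1 CPM in TGR and 57.7 CPM in control. Of 4 scored ID and E protein genes, Id3 (55.8 and 119 CPM) and Id2 were lower in TGR, and Tcf3, which encodes the E protein E2A, was at 74.5 and 73.4 CPM. Dbp, a clock output gene listed with Bhlhe40, was at 24.0 CPM in TGR and 8.42 CPM in control, 2.84-fold higher. It reached 10 CPM in TGR only, and within G1, at 27.0 CPM in TGR and 17.1 CPM in control, its ratio had an interval of 0.837 to 3.34.

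Of 13 scored factors of the naive and memory state, 4 were higher in TGR (Myb, Klf2, Bach2 and Lef1) and 1 was lower (Id3). Klf2 was at 126 CPM in TGR and 74.5 CPM in control, Lef1 at 127 and 83.5 CPM, and Myb at 18.5 and 10.1 CPM. Foxp1 (210 and 159 CPM) and Tcf7 (198 and 166 CPM) were within 1.5-fold. Within G1, 1 of the 13 was called higher (Myb, on 3 UMIs in control and with 10 CPM reached in TGR only) and 2 lower (Id3 and Ets1). Of 9 scored other effector and exhaustion factors, Rora (14.4 and 6.18 CPM) and Tox (11.9 and 7.40 CPM) were higher and Gata3 (13.0 and 20.6 CPM) was lower. Rora and Tox reached 10 CPM in TGR only, so they could be called only as higher. Hif1a (99.7 and 70.1 CPM) and Stat4 (41.3 and 31.0 CPM) were within 1.5-fold. None of the 9 was called within G1.

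In a chosen list of cytokine receptor genes, none of the 12 scored was called lower over all cells, against 21.8% of all scored genes. Il7r (70.6 CPM in TGR and 34.6 CPM in control), Il12rb2 (31.9 and 18.5 CPM), Il12rb1 (17.7 and 10.3 CPM) and Ifnar1 (50.2 and 32.2 CPM) were higher, against 9.3% of all scored genes. Il2ra (129 and 189 CPM, ratio 0.680, 0.645 to 0.718) and Il2rg (180 and 130 CPM, ratio 1.38, 1.31 to 1.46) were within 1.5-fold. Within G1 none of the 12 was higher, Il2ra was lower at the threshold (146 and 218 CPM), and Il7r stood at 67.8 CPM in TGR and 73.6 CPM in control.

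Genes known as targets of T-bet, EOMES and RUNX3 split. Of 9 scored, Xcl1 (12.3 CPM in TGR and 3.94 CPM in control) and Ccl5 (145 and 61.6 CPM), both chemokines, were higher, and the granule genes Nkg7 (488 and 867 CPM) and Gzmb (480 and 803 CPM) were lower. Xcl1 reached 10 CPM in TGR only and could be called only as higher. Within G1 Nkg7 was still called lower (534 and 892 CPM), and Gzmb was not, at 577 CPM in TGR and 642 CPM in control (ratio 0.897, 0.808 to 1.00). Neither chemokine was called within G1, where Ccl5 was at 161 CPM in TGR and 182 CPM in control. Of 13 scored targets of IRF4, BATF and BLIMP-1, the cell cycle inhibitor Cdkn1a (63.4 and 25.9 CPM), the inhibitory receptor Lag3 (34.7 and 17.0 CPM) and the death gene Bcl2l11 (68.5 and 35.8 CPM) were higher and the glucose transporter gene Slc2a1 (14.2 and 29.1 CPM) was lower. Within G1 Lag3 alone of these was called, at 42.0 CPM in TGR and 22.3 CPM in control. There Cdkn1a had a ratio of 1.13 (0.761 to 1.83), Bcl2l11 of 1.26 (0.884 to 1.92) and Slc2a1 of 0.644 (0.364 to 1.34). Cd27 (182 and 143 CPM) was within 1.5-fold.

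The genes closest to each factor in pattern were taken from 6461 candidates by the root mean square difference of centred log2(CPM + 5) over the 6 combinations of library and phase. Irf8 lay nearest to Cib1 (0.09) and C1d (0.12), Batf3 to Ncbp2 (0.07) and Cisd1 (0.08), and Eomes to Hmgn3 (0.10) and Pnp (0.11). Id2 lay nearest to Gstp1 and Llph, Irf4 to Dxo and Gtf3c2, Batf to Emb and Prdx2, and Runx3 to Ggh and Pak1ip1, all within 0.07. Bhlhe40 had the least close neighbours, Snx14 (0.15) and Birc2 (0.18).

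Promoters were searched for 6 motifs on both strands in the 250 bases before the start, and all factors but Bhlhe40 matched a RefSeq entry. The RefSeq start lay 69753 bases from the GENCODE start of the gene for Prdm1, 1048 for Id2 and 567 for Batf3, so these 3 windows lie inside the GENCODE gene, and motifs found in them are relative to the RefSeq start alone. The GAS motif TTCNNNGAA occurs in 7.02% of all 32851 promoters of that length and was found in Irf8 and in Batf3. Both were lower in TGR, as were Eomes and Id2, in which it was not found. In Irf8 it occurred 2 times, as TTCTCGGAA and TTCAGAGAA, with the first base 171 and 153 bases before the start. The matches do not overlap, as the printed sequence shows. The IRF motif, GAAA and GAAA with any 2 bases between them, in 2.98% of promoters, was found in Eomes 154 bases before the start.

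The RUNX motif TGTGGT, in 14.0% of promoters, was found 2 times each in Batf and in Runx3, where the first bases lie 134 and 126 bases before the start. The AP-1 motif TGANTCA, in 6.75% of promoters, was found in Prdm1, and the E-box CACGTG, in 6.02%, in Batf3. The T-box motif AGGTGTGA, in 1.12%, had no match among the 9 promoters. No data of this series measure binding at these sites.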

How the data were processed

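The deposited files are whole-number UMI counts per gene and cell barcode, and the authors applied no normalization to these counts as the values show. The submitters' processing notes list Cell Ranger 2.2, Seurat 3 and mm10, with no role given in the sources used here. Barcodes with at least 500 genes and under 10% mitochondrial UMIs were kept. No doublet caller was run, so doublets remain. UMIs were summed per library and scaled to CPM of all UMIs. Ratios used 0.5 UMI added per library and Clopper-Pearson intervals of the split of UMIs, sums used exact Poisson and shares exact binomial intervals, all at 95%. Phases were called with scanpy 1.11.5 from 43 S and 54 G2/M genes after thinning to 1500 UMIs. A gene was called at 1.5-fold with at least 10 CPM in either library and an interval that excluded 1. The ratio, interval and call rule were tested on simulated Poisson counts, which hold no extra spread between cells. The measure of evenness was tested on simulated cells, and phase calls, scaling, nearest genes and motif searches were not tested on simulated data. Alternative scaling used edgeR 4.0.16 and DESeq2 1.42.0 factors only. Named genes were all 10 factors, the called members (at most 4) and the 2 most abundant genes of each other list, and the 2 nearest genes in pattern. A gene that met this rule is not reported here. Genes outside that rule, namely the uneven genes and those beside Batf3-high cells or named within a phase, were chosen after their values were seen. The factors and lists were chosen with earlier results of these data known. Coordinates are from GENCODE, by Ensembl identifier. With 1 library per condition, intervals do not cover the spread between cultures, and fewer cells expressing a gene cannot be told apart from less RNA per cell in sums of sparse counts.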

Additional observations from a re-analysis of the deposited data

Results flagged for a closer look

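Runx3 moved with called phase in opposite directions in the libraries. G2/M cells over G1 cells gave a ratio of 0.838 in TGR (0.764 to 0.919) and 1.30 in control (1.05 to 1.66). The difference between the libraries was not tested, and the control value rests on 82 UMIs from 163 G1 cells. When phases were called without thinning, the control ratio was 1.15 and the TGR ratio 0.808. With cells thinned to 2500 UMIs before the call, the control ratio was 1.08 and the TGR ratio 0.807. With phases called within each library alone they were 1.30 and 0.791.

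Control barcodes removed for their mitochondrial share, 209 in all with a median of 1545 UMIs and 17.3% mitochondrial UMIs, held 242 UMIs of the 10 factors, data outside the comparisons. Irf8 was at 93.7 CPM and Runx3 at 348 CPM in them, against 60.8 and 173 CPM in the kept control cells. TGR lost 2 barcodes with 5 such UMIs.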

How the results depend on the processing

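Over 15 alternatives, of which 2 were added after the data were seen, Irf8 and Batf3 were called lower in all 15, Eomes lower in 14 and Bhlhe40 higher in 14, the exception being a minimum of 50 CPM, which leaves Eomes and Bhlhe40 unscored. With that minimum the number of factors higher in TGR was 0 by the same fold and interval rule, against 7.28% of all genes. The calls summed over G1, S and G2/M numbered 7 with it, against 14 as reported. The number lower was 3 or 4 throughout, while the share of all genes called lower ran from 10.2% to 34.2%. That share was lowest with totals without ribosomal protein and mitochondrial genes and highest with the minimum of 50 CPM. Id2 was called lower in 11, with log2 ratios of −0.67 to −0.38, and lost its call with totals without ribosomal protein and mitochondrial genes, with cells thinned to 1500 UMIs, with cells weighted equally and with cells of 3000 to 6000 UMIs. Irf4 was called lower in 2, those with cells weighted equally and with 3000 to 6000 UMIs (log2 −1.16). No counting interval was computed with cells weighted equally or with phases weighted equally. Calls in those settings therefore rest on the fold alone, including that of Irf4 with cells weighted equally. Log2 ratios ranged from −2.14 to −0.84 for Batf3, −1.20 to −0.84 for Irf8, −1.97 to −1.30 for Eomes and 0.92 to 1.49 for Bhlhe40, and the cause of these shifts was not tested. Calls within phases numbered 12 to 15 under other ways of calling phases. For calls within phases under other settings, the share of all genes called was not computed. Genes under 10 CPM, here Tbx21 and Prdm1, are limited by depth. No paired analysis was possible because each condition has 1 library.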
